A study of Homo sapiens with 6 samples.

Results

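Aminoacyl-tRNA synthetases are the enzymes that join each amino acid to its transfer RNA (tRNA). The genes described here are 38 in number: 20 that encode cytosolic synthetases or their subunits, 16 that encode mitochondrial synthetases, and AIMP1 and AIMP2, non-enzymatic scaffold proteins of the multisynthetase complex. They were taken by name from the 18317 gene names of the deposited tables. All 38 had a row, and all 38 passed the filter on low values, at least 1 FPKM in at least 3 of 6 libraries. FPKM is a level in fragments scaled for gene length and library total. In MARS2 the filter was met by the 3 libraries of the group with the higher level alone, so that gene could be tested only because it was high there.

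The cells were HUVECs, endothelium of the human umbilical cord vein, obtained from a commercial supplier. A first group of 3 libraries came from cells given miR-483 by lipofection and a second group of 3 from cells given its oxidised form, 8OH-G miR-483. In the oxidised form guanine carries an added oxygen group, and RNA was collected on day 2 in both groups. The comparison asks which messenger RNAs differ between cells given the oxidised and the unmodified form. The scramble control that the labels' protocol names was not analysed here, so each difference is one between these 2 groups and may come from either form. The labels name neither the arm of miR-483 nor the oxidised guanine, nor do they call the replicates separate cultures. The p-values therefore speak only to the spread among these 6 libraries, which may be technical.

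Each synthetase recognises 1 amino acid, activates it with ATP and transfers it to the matching tRNA, which carries it to the ribosome. Class I and class II enzymes have unrelated catalytic folds. Mitochondria use their own set, encoded in the nucleus and imported, while a few genes such as GARS and KARS supply both compartments. In the cytosol, several synthetases are held together with AIMP1 and AIMP2 in the multisynthetase complex. Many cytosolic synthetase genes belong to the amino acid response, in which the transcription factor ATF4 acts through CEBP-ATF elements. In endothelium, fragments or secreted forms of the tryptophanyl and tyrosyl enzymes and of AIMP1 are known for effects on vessel growth.

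The libraries summed to 1396537 to 1687283 FPKM, and 71.3% to 76.6% of that sum lay in rows of mitochondrially encoded genes. All 10 endothelial markers were present, as the label asks, yet 6 fell and 0 rose with 8OH-G miR-483, limma calls being at an adjusted p under 0.05. The summed level of these 10 markers was 1933 to 1970 FPKM with miR-483 and 1098 to 1317 FPKM with 8OH-G miR-483. Among all tested names 20.5% fell and 34.9% rose, and each marker count given here is to be read beside these shares. Of 10 mural and fibroblast markers, 6 had a row and 3 were tested, of which 1 fell, with sums of 620 to 842 FPKM and 826 to 1019 FPKM that were nearly all RGS5. Of 7 epithelial markers, 3 were tested and KRT18 rose (sums of 71.0 to 81.6 FPKM and 127 to 144 FPKM). Of 4 lymphatic markers, 3 were tested and 2 fell (sums of 36.1 to 38.0 FPKM and 23.7 to 31.4 FPKM). Of 7 leukocyte markers only LYZ had a row (3.66 to 4.32 FPKM and 0 to 0.179 FPKM), and none of 5 erythroid markers did. These shifts go with the group in every result given here, and their part in the results was not tested. In bulk RNA, fewer cells of a type and less RNA per cell cannot be told apart.

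Most of these genes were higher in cells given 8OH-G miR-483. Of the 38 genes, 30 rose and 3 fell, and 5 did not pass (limma on log2(FPKM + 1), Benjamini-Hochberg adjusted p under 0.05 over all 12712 tested names). Over all tested names, 34.9% rose and 20.5% fell. The median change of the 38 genes was 0.46 on the log2(FPKM + 1) scale, as 8OH-G miR-483 minus miR-483, against 0.09 for all tested names. With a fitted change of at least 1.5-fold as a further condition, 15 rose and 1 fell, where 14.4% and 7.68% of all tested names did. In 30 genes the 3 libraries with 8OH-G miR-483 all lay above the 3 with miR-483, and in 3 genes all below, against 39.5% and 23.7% of all tested names (63.3% in either direction). After median-ratio scaling, which brings the median over all tested names to 0.01, 26 rose and 3 fell, against 28.3% and 26.3% of all names. After quantile normalization, which shifts that median by -0.10, 27 rose and 3 fell, against 27.1% of all names higher and 3556 of the 12712 lower (55.1% called in either direction).

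**Figure D1:**
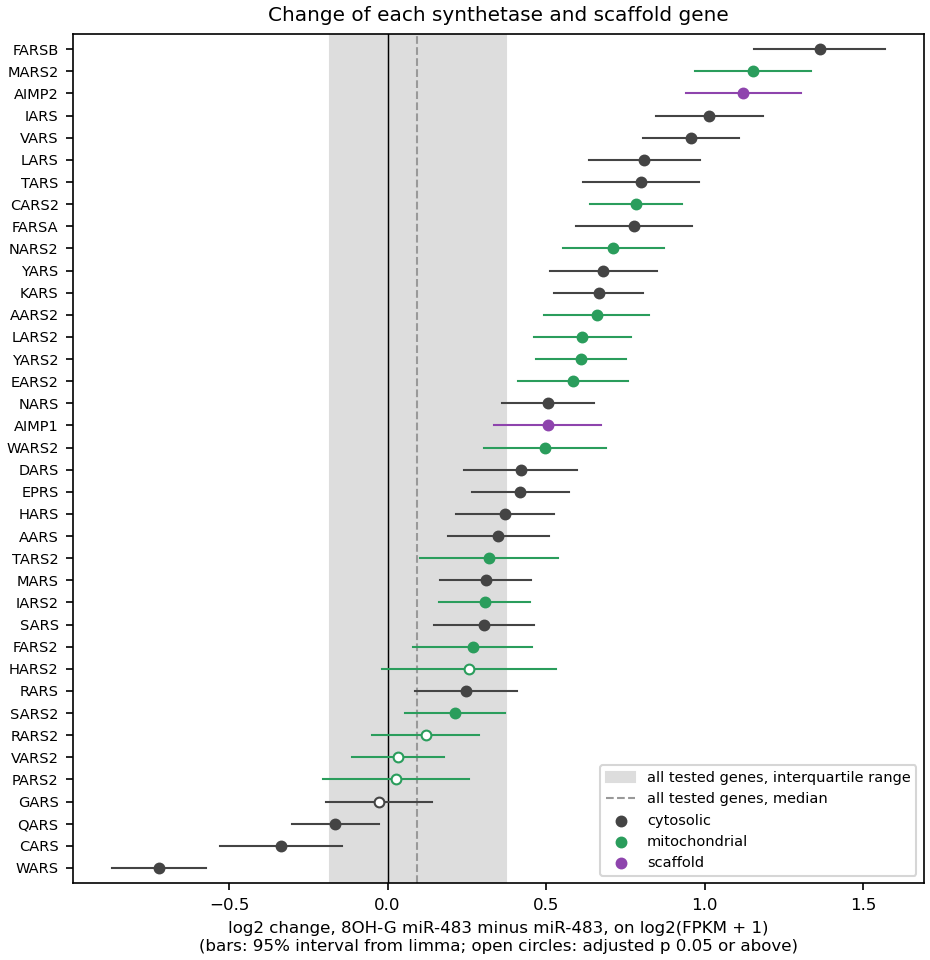
Fitted change of each of the 38 genes (points, log2(FPKM + 1) scale, 8OH-G miR-483 minus miR-483) with its 95% interval, in order of size. Filled points passed the test, open points did not. The grey band is the interquartile range of all tested genes, -0.18 to 0.38, and most of the synthetase genes lie to the right of its middle, from FARSB at 1.36 down to WARS at -0.72.

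The median level of the cytosolic genes exceeded that of the mitochondrial genes in either group. With miR-483 the cytosolic gene means ran from 6.41 to 95.03 FPKM with a median of 32.2 FPKM, and the mitochondrial means from 0.819 to 22.6 FPKM with a median of 5.66 FPKM. With 8OH-G miR-483 the medians were 44.2 and 8.31 FPKM. The levels summed over the 20 cytosolic genes were 712, 733 and 731 FPKM with miR-483 and 888, 945 and 917 FPKM with 8OH-G miR-483. The sums over the 16 mitochondrial genes were 120, 129 and 122 FPKM and 166, 168 and 168 FPKM. Neither pair of sums overlapped between the groups.

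**Figure D2:**
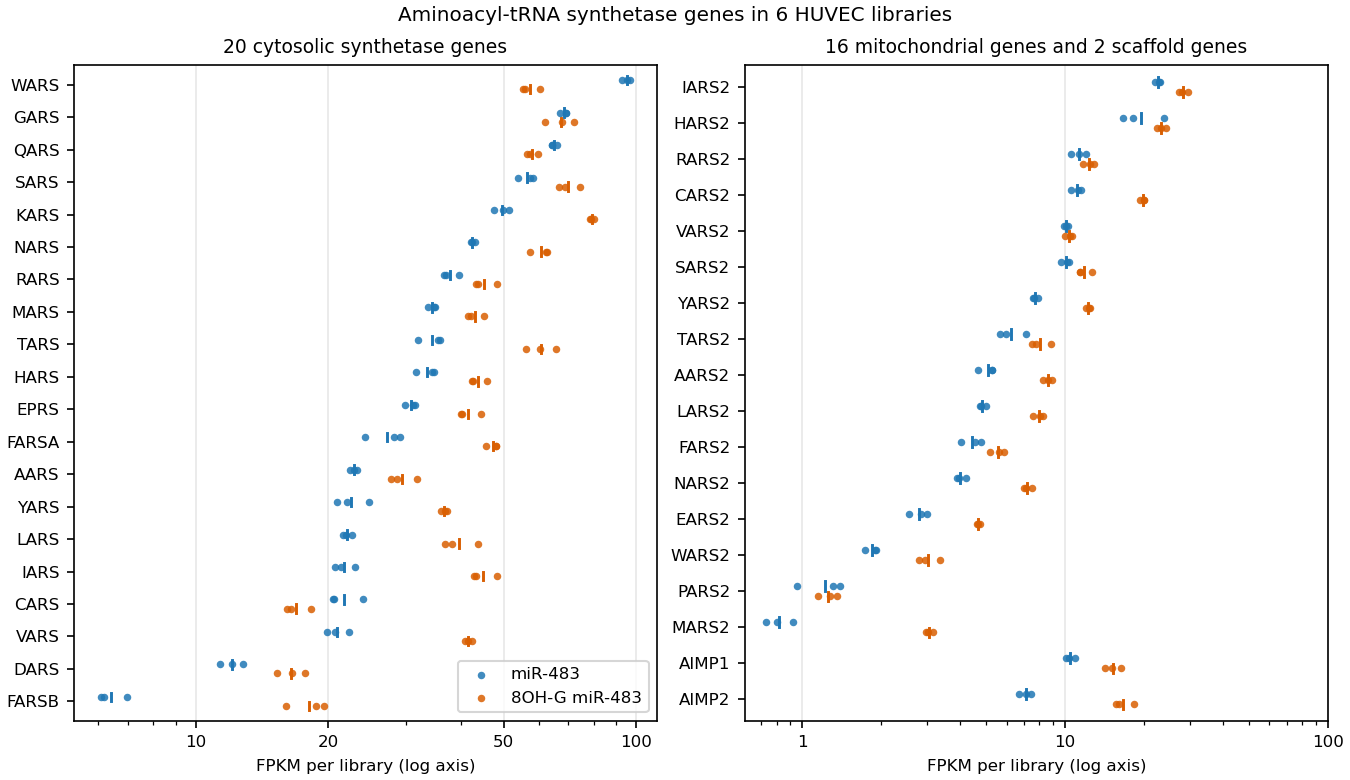
FPKM of each gene in each of the 6 libraries on a log axis, with a short line at each group mean. The 3 libraries of a group lie close together in most genes, HARS2 with miR-483 (16.6 to 23.8 FPKM) being an exception, and WARS is the top gene of its panel, with the 8OH-G miR-483 libraries at 55.4 to 60.4 FPKM below 92.8 to 96.9 FPKM.

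Of the 20 cytosolic genes, 16 rose and 3 fell, GARS being the one that missed the threshold. Their median change was 0.42 on the log2(FPKM + 1) scale. The largest rise was that of FARSB, the β subunit of phenylalanyl-tRNA synthetase. FARSB was at 6.18, 6.08 and 6.98 FPKM with miR-483 and at 16.005, 18.8 and 19.5 FPKM with 8OH-G miR-483. It was the lowest cytosolic gene with miR-483, and its groups lay far apart. The ratio of means was 2.82, with a log2 change of 1.36 (SE 0.090, limma adjusted p = 7.18e-06). FARSA, the catalytic α subunit of the same enzyme, was at 24.2, 29.1 and 28.2 FPKM and at 45.5, 48.0 and 47.9 FPKM, a 1.73-fold higher mean (log2 change 0.78, SE 0.080, limma adjusted p = 7.07e-05). FARSA therefore exceeded FARSB 3.92-fold to 4.79-fold in the miR-483 libraries and 2.46-fold to 2.84-fold in the 8OH-G miR-483 libraries.

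The branched-chain amino acid enzymes rose together. IARS, which charges isoleucine, was at 21.3, 20.7 and 23.0 FPKM with miR-483 and at 42.8, 43.3 and 48.3 FPKM with 8OH-G miR-483. Every library of the second group was higher, by 2.07-fold in the means (log2 change 1.01, SE 0.074, limma adjusted p = 1.10e-05). VARS, the valine enzyme, was at 20.7, 19.8 and 22.3 FPKM and at 42.2, 40.7 and 41.5 FPKM, 1.98-fold in the means (log2 change 0.96, SE 0.066, limma adjusted p = 8.66e-06). VARS stands on several rows of each table, and in miR-483 replicate 1 the rows other than the highest hold 0, so that with the mean over rows in place of the highest value the change was 1.77 and the call was lost (0.116). LARS, the leucine enzyme, which is also known as a leucine sensor for the mTORC1 kinase, was at 21.6, 21.9 and 22.6 FPKM and at 36.8, 43.6 and 38.1 FPKM. Its mean was 1.79-fold higher (log2 change 0.81, SE 0.076, limma adjusted p = 4.29e-05). With miR-483 these 3 genes stood at nearly the same level, with means between 20.9 and 22.1 FPKM.

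TARS, KARS, YARS and NARS made up the rest of the cytosolic genes with the largest rises. TARS, the threonyl enzyme, was at 35.8, 35.5 and 31.9 FPKM with miR-483 and at 56.0, 65.6 and 60.4 FPKM with 8OH-G miR-483 (log2 change 0.80, SE 0.080). KARS, the lysyl enzyme, was at 47.5, 49.8 and 51.5 FPKM and at 78.9, 78.6 and 80.1 FPKM (log2 change 0.67, SE 0.062). It moved from the 5th highest cytosolic mean to the highest. YARS, the tyrosyl enzyme, was at 22.05, 20.9 and 24.7 FPKM and at 36.0, 37.2 and 36.8 FPKM (log2 change 0.68, SE 0.074). NARS, the asparaginyl enzyme, was at 43.0, 42.0 and 42.3 FPKM and at 57.3, 62.6 and 62.4 FPKM (log2 change 0.51, SE 0.064). None of these 4 genes had overlapping groups, and their limma adjusted p ran from 3.84e-05 (KARS) to 0.000215 (NARS).

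A further 7 cytosolic genes rose by less, between 0.25 and 0.42 on the log2(FPKM + 1) scale. DARS (aspartate) had means of 12.1 ± 0.726 and 16.5 ± 1.2 FPKM (± SD, n = 3 libraries per group throughout), and EPRS, a fused glutamyl and prolyl enzyme, had 30.8 ± 0.868 and 41.5 ± 2.44 FPKM. HARS (histidine) went from 33.6 ± 1.68 to 43.7 ± 1.93 FPKM, and AARS (alanine) from 22.8 ± 0.435 to 29.4 ± 2.07 FPKM. MARS, which charges both initiator and elongator methionine tRNA, went from 34.4 ± 0.709 to 43.0 ± 1.91 FPKM, and SARS (serine) from 56.5 ± 2.34 to 70.0 ± 3.89 FPKM. RARS (arginine), with 37.7 ± 1.65 and 45.0 ± 2.74 FPKM, had the smallest rise (log2 change 0.25, SE 0.070, limma adjusted p = 0.0157). The RARS call was lost after median-ratio scaling (0.0886) and without miR-483 replicate 3 (0.0648).

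The genes that fell were WARS, CARS and QARS. WARS, the tryptophanyl enzyme, an interferon-induced gene whose short form restrains vessel growth, was at 92.8, 95.3 and 96.9 FPKM with miR-483 and at 60.4, 56.0 and 55.4 FPKM with 8OH-G miR-483. It had the highest level of all synthetase genes with miR-483 and the 7th highest with 8OH-G miR-483. The mean was 1.66-fold lower (log2 change -0.72, SE 0.065, limma adjusted p = 3.27e-05). CARS, the cysteinyl enzyme, was at 20.5, 23.9 and 20.5 FPKM and at 16.4, 18.2 and 16.1 FPKM, a log2 change of -0.34 (SE 0.084, limma adjusted p = 0.00892). CARS has repeated rows with the same zeros in miR-483 replicate 1, and with their mean the change was -0.02 and the call was lost (adjusted p = 0.9509). QARS, the glutaminyl enzyme, was at 64.4, 66.0 and 64.4 FPKM and at 59.8, 57.4 and 56.4 FPKM (log2 change -0.16, SE 0.060, limma adjusted p = 0.0442). The QARS call was lost without any 1 of the 6 libraries (0.0605 to 0.112). GARS, the glycyl enzyme, was at 67.0, 69.3 and 69.4 FPKM and at 61.9, 72.3 and 67.9 FPKM, with overlapping groups and a 95% interval of -0.19 to 0.14 for its log2 change.

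Of the 16 mitochondrial genes, 12 rose, 0 fell and 4 missed the threshold. Their median change was 0.41. In limma 0 fell at an unadjusted p under 0.05 either, since all 16 fitted changes were positive. After median-ratio scaling or quantile normalization 9 rose and 0 fell. MARS2, the mitochondrial methionyl enzyme, was at 0.803, 0.730 and 0.925 FPKM with miR-483 and at 2.97, 3.01 and 3.15 FPKM with 8OH-G miR-483. The groups were clearly apart although the level was low, with a 3.71-fold higher mean and a log2 change of 1.15 (SE 0.080, limma adjusted p = 8.54e-06). The change on the log2(FPKM + 1) scale understates that of so low a gene.

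CARS2, the cysteinyl enzyme of mitochondria, was at 10.6, 11.5 and 11.2 FPKM with miR-483 and at 20.01, 19.3 and 20.03 FPKM with 8OH-G miR-483 (log2 change 0.78, SE 0.064). NARS2 (asparagine) was at 3.94, 3.88 and 4.19 FPKM and at 6.98, 7.53 and 7.08 FPKM (log2 change 0.71, SE 0.069). AARS2 (alanine) was at 5.28, 4.68 and 5.26 FPKM and at 8.28, 8.61 and 8.90 FPKM (log2 change 0.66, SE 0.072). These 3 genes rose 1.69-fold to 1.80-fold in mean FPKM with no overlap between groups. LARS2 (leucine) was at 4.78, 4.76 and 4.999 FPKM and at 8.26, 7.59 and 8.02 FPKM (log2 change 0.61, SE 0.067). YARS2 (tyrosine) was at 7.60, 7.93 and 7.56 FPKM and at 12.4, 12.4 and 12.001 FPKM (log2 change 0.61, SE 0.062). The limma adjusted p of these 5 genes ran from 1.95e-05 (CARS2) to 9.77e-05 (AARS2).

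On the log2(FPKM + 1) scale smaller rises were seen in EARS2 (glutamate, 2.79 ± 0.224 to 4.67 ± 0.0686 FPKM), WARS2 (tryptophan, 1.848 ± 0.0948 to 3.02 ± 0.297 FPKM) and IARS2 (isoleucine, 22.6 ± 0.536 to 28.2 ± 1.17 FPKM), the most abundant mitochondrial synthetase transcript. In mean FPKM the rise of EARS2 (1.68-fold) exceeded those of LARS2 (1.64-fold) and YARS2 (1.59-fold), and that of WARS2 was also 1.64-fold. TARS2 (threonine, 6.25 ± 0.765 to 8.03 ± 0.691 FPKM), FARS2 (phenylalanine, 4.45 ± 0.384 to 5.56 ± 0.337 FPKM) and SARS2 (serine, 10.1 ± 0.346 to 11.8 ± 0.685 FPKM) passed as deposited, with limma adjusted p of 0.0201, 0.0216 and 0.0279. All 3 of these calls were lost under either scaling, with adjusted p of 0.0639, 0.0811 and 0.166 for median-ratio and 0.207, 0.263 and 0.342 for quantile. They were also lost without some libraries. TARS2 did not pass when any of miR-483 replicates 1 and 3 and 8OH-G replicate 2 was omitted (0.0604 to 0.0783). FARS2 did not pass when any of miR-483 replicate 3 and 8OH-G replicates 1 and 2 was omitted (0.0632 to 0.0898). SARS2 did not pass when any miR-483 replicate or 8OH-G replicate 1 was omitted (0.0573 to 0.0999).

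The mitochondrial genes that did not pass were HARS2, RARS2, VARS2 and PARS2. HARS2 (histidine) was at 16.6, 23.8 and 18.1 FPKM with miR-483 and at 22.5, 24.1 and 23.1 FPKM with 8OH-G miR-483. Its second miR-483 library lay among the values of the other group, and without that library HARS2 passed (log2 change 0.40, limma adjusted p = 0.00374) rather than not (0.26, 0.101). RARS2 (arginine) had means of 11.3 ± 0.784 and 12.4 ± 0.561 FPKM, VARS2 (valine) 10.1 ± 0.165 and 10.4 ± 0.354 FPKM, and PARS2 (proline) 1.22 ± 0.234 and 1.26 ± 0.109 FPKM. The 95% intervals of their log2 changes were -0.05 to 0.29, -0.11 to 0.18 and -0.20 to 0.26. VARS2 was the only mitochondrial gene on several rows (4), so its near-zero change rests on keeping the highest value per library. With the mean over rows the median mitochondrial change was 0.54 in place of 0.41.

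Cytosolic and mitochondrial genes for the same amino acid had fitted changes that lay apart in some pairs and close in others. Among 17 pairs, the log2 change of the cytosolic gene was the larger in 11 and that of the mitochondrial gene in 6. In 11 pairs the within-library ratio of cytosolic to mitochondrial FPKM did not overlap between the groups. Of all tested names taken singly, 63.3% did not overlap, and no share was computed for other pairs of genes. The count is therefore not read as particular to these pairs. An exact two-sided permutation test of the per-library difference in log2(FPKM + 1) between the genes of a pair, 3 against 3 libraries, cannot go below p = 0.1, which 14 pairs reached, or 0.121 after Benjamini-Hochberg adjustment over the 17, so no pair passed. On the log2(FPKM + 1) scale the changes of the tryptophan pair differed most, WARS falling and WARS2 rising, while the FPKM ratio itself moved by a larger factor for methionine. WARS exceeded WARS2 53.4-fold, 50.3-fold and 50.8-fold with miR-483 and 20.5-fold, 20.2-fold and 16.5-fold with 8OH-G miR-483. For cysteine, the ratio of CARS to CARS2 was 1.94, 2.08 and 1.82 and then 0.822, 0.942 and 0.802, so the order of the genes was turned. For methionine, MARS exceeded MARS2 by 42.4 ± 5.18 and 14.1 ± 0.821 times. The opposite arrangement held for valine, with VARS to VARS2 ratios of 2.07 ± 0.126 and 4.01 ± 0.139, and for isoleucine, with IARS to IARS2 ratios of 0.958 ± 0.0422 and 1.59 ± 0.0455. Both valine genes stand on several rows, so the valine ratios depend on keeping the highest value per library. For tyrosine the ratios were 2.94 ± 0.316 and 2.99 ± 0.0769, and for histidine 1.76 ± 0.307 and 1.88 ± 0.0299, with overlapping values.

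**Figure D3:**
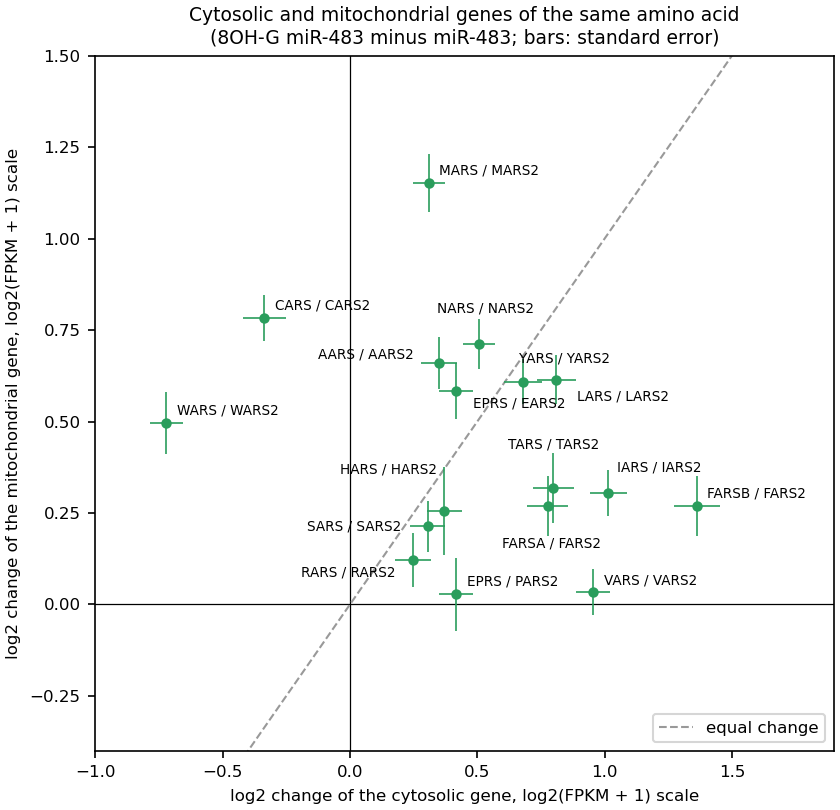
Log2 change of the cytosolic gene (x axis) against that of the mitochondrial gene (y axis) for 17 pairs, on the log2(FPKM + 1) scale with standard errors. EPRS appears with EARS2 and with PARS2, and FARS2 with FARSA and with FARSB. WARS and CARS lie to the left of zero while their mitochondrial counterparts are above it. VARS lies at 0.96 with VARS2 at 0.03, both taken from the highest of several rows.

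The scaffold genes rose. AIMP2, which docks many of the enzymes into the complex, was at 6.66, 7.45 and 7.14 FPKM with miR-483 and at 16.02, 18.2 and 15.6 FPKM with 8OH-G miR-483. The mean was 2.35-fold higher, with no overlap (log2 change 1.12, SE 0.080, limma adjusted p = 1.00e-05). AIMP1, precursor of the cytokine EMAP II, was at 10.9, 10.1 and 10.3 FPKM and at 14.2, 15.2 and 16.4 FPKM (log2 change 0.50, SE 0.073, limma adjusted p = 0.000494). With miR-483 AIMP1 exceeded AIMP2 in every library. With 8OH-G miR-483 the values of the 2 genes ran into each other. Of the 10 genes here that encode parts of the complex (EPRS, IARS, LARS, MARS, QARS, RARS, KARS, DARS, AIMP1 and AIMP2), 9 rose and QARS fell, beside 34.9% and 20.5% of all tested names. Median-ratio scaling gave 8 and 1, RARS being lost, and quantile normalization gave 9 and 1. By structural class, 14 of 19 class I genes rose and 3 fell, and 14 of 17 class II genes rose and 0 fell. Of all tested names, 34.9% rose and 20.5% fell. Median-ratio scaling gave 13 and 3 in class I and 11 and 0 in class II. Quantile normalization gave 14 and 3 in class I and 11 and 0 in class II. EPRS, a fused glutamyl and prolyl enzyme, was counted in class I only, although the mitochondrial prolyl gene PARS2 is in class II. The genes that fell, WARS, CARS and QARS, were thus all of class I. The CARS call was lost with the mean over repeated rows, and the QARS call without any 1 of the 6 libraries. The difference between the classes was not tested.

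Promoters were examined because CEBP-ATF elements are the known route by which ATF4 acts on synthetase genes. RefSeq windows of 300 bases, from 250 before to 50 after an annotated start (GRCh38.p14, not the hg19 build of the expression files), matched 32 of the 38 genes. DARS, LARS, VARS, YARS, AARS2 and VARS2 did not match. The element core TGATGNAA or its reverse complement TTNCATCA was found in 8 of the 32 genes, 7 cytosolic and 1 mitochondrial. Of all 35116 windows, 3.62% held it, or 4.46% of genes when any window of a gene counts. The 8 sites are shown with 16 bases on either side, the core in capitals, to let the genes that rose be set beside those that did not.

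IARS, chr9:92293687-92293726, minus strand: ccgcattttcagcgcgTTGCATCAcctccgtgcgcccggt
TARS, chr5:33440951-33440990, plus strand: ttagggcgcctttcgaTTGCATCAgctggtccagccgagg
YARS2, chr12:32756071-32756110, minus strand: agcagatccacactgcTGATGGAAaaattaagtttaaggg
NARS, chr18:57621799-57621838, minus strand: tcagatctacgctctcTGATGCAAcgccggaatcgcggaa
AARS, chr16:70289670-70289709, minus strand: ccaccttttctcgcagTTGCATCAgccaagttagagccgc
MARS, chr12:57488048-57488087, plus strand: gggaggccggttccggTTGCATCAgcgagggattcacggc
GARS, chr7:30594829-30594868, plus strand: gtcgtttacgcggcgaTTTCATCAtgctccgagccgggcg
CARS, chr11:3057402-3057441, minus strand: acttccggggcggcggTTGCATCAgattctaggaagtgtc

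The same 8 letters, TTGCATCA, thus stood in the promoter of IARS, which rose 2.07-fold, and in that of CARS, which fell. Of the 8 genes with the core, 6 rose, CARS fell and GARS missed the threshold. Their median change was 0.43. Of the 24 matched genes without it, 19 rose and 2 fell, with a median of 0.39. The medians with and without the core were therefore close. A match is a string of letters and not evidence of binding.

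The E-box CACGTG, the sequence bound by MYC and related factors, was found in 5 of the 32 genes, against 7.26% of all windows and 8.77% of all genes. The 5 genes were IARS, CARS2, EARS2, MARS2 and AIMP2, and all 5 rose, with a median change of 1.01. MARS2 met the filter only through the libraries with the oxidised form, so it could hardly have been tested without being higher there. Its rise therefore adds little to the count for the E-box, and the median includes it. Of the 27 matched genes without the motif, 20 rose and 3 fell, with a median of 0.32, where 34.9% of all tested names rose. No test was made of that difference. MARS2 was also the only one of the 32 genes with the core of the NRF1 motif, which 1.24% of all windows held on either strand. NRF1 is an activator of nuclear genes for mitochondrial proteins. The MARS2 window is given whole because this gene had the largest ratio of means among the 38, with the NRF1 core and then the E-box in capitals. The E-box sites of CARS2, AIMP2 and IARS follow it. That of EARS2, the gene with the smallest fitted change of the 5 (0.58), is not printed.

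MARS2, chr2:197705119-197705418, plus strand: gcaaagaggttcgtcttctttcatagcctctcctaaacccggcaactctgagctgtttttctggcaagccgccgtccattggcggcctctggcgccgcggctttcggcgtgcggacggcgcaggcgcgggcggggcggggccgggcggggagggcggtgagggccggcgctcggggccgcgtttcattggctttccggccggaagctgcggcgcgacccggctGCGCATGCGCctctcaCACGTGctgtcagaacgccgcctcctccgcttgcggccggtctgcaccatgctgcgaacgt
CARS2, chr13:110706497-110706534, minus strand: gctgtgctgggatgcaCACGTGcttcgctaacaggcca
AIMP2, chr7:6009474-6009511, plus strand: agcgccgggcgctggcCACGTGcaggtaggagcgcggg
IARS, chr9:92293862-92293899, minus strand: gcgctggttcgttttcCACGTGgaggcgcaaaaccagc

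HARS and HARS2 share a promoter. Their annotated starts lie 85 bases apart on opposite strands, and the stretch common to both windows is given on the plus strand with the bases from 1 start to the other in capitals.

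HARS and HARS2, chr5:140691321-140691504, plus strand: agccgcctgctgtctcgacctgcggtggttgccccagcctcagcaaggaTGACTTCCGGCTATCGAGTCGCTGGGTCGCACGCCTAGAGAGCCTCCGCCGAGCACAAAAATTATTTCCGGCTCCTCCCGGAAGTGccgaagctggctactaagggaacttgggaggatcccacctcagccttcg

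The log2 changes of this divergent pair were 0.37 (SE 0.068) for HARS and 0.26 (SE 0.120) for HARS2, and the difference between them, 0.11, was smaller than the error of HARS2. HARS and HARS2 are close relatives in sequence, so both levels are uncertain where reads fit either.

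Other genes of tRNA biology were higher as well. Of 13 tested factors that work beside the synthetases, in complex assembly, proofreading or special charging routes, 11 rose and 0 fell, and 0 were lower at an unadjusted limma p under 0.05. Median-ratio scaling gave 10 and 0, and quantile normalization gave 8 and 0. EEF1E1, also known as AIMP3, the third scaffold protein of the multisynthetase complex, was at 12.8, 16.1 and 15.0 FPKM with miR-483 and at 34.4, 38.1 and 36.3 FPKM with 8OH-G miR-483 (log2 change 1.26, SE 0.090). PTRH2, a peptidyl-tRNA hydrolase, rose 1.69-fold in mean FPKM, and AARSD1, which removes serine wrongly joined to alanine tRNA, rose 1.68-fold. The 2 that did not pass were SEPSECS and TRNAU1AP, which act on selenocysteine tRNA, while PSTK and EEFSEC, which serve the same tRNA, rose (log2 changes 0.30 and 0.57).

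Of 22 genes for RNA polymerase III transcription of tRNA genes and for tRNA export, 17 rose and 2 fell. Median-ratio scaling gave 15 and 2, and quantile normalization gave 12 and 2. POLR3G, a polymerase III subunit typical of proliferating cells, rose 3.42-fold from 3.27 ± 0.276 to 11.2 ± 1.08 FPKM. POLR3K rose 2.10-fold and GTF3C6 1.69-fold in mean FPKM. The 2 that fell were MAF1, the repressor of polymerase III (76.9 ± 3.27 to 53.2 ± 3.61 FPKM), and POLR3GL, the alternative to POLR3G (17.9 ± 1.21 to 13.8 ± 2.67 FPKM, limma adjusted p = 0.0333). Of 69 tRNA processing and modification genes, 54 rose and 1, TRPT1, fell. Median-ratio scaling gave 47 and 2, and quantile normalization gave 41 and 2. LCMT2, among the 54, met the filter only through the libraries with 8OH-G miR-483, where it was higher. Its rise therefore adds little to the count. WDR4 and METTL1, partners in a tRNA guanine methyltransferase, rose 2.53-fold and 2.55-fold in mean FPKM, and ALKBH8, a wobble uridine modifier, rose 2.35-fold. Of 13 mitochondrial translation factors, 9 rose and 0 fell, and 0 were lower at an unadjusted limma p under 0.05, with ICT1 at 2.06-fold, GFM1 at 1.855-fold and LRPPRC at 1.68-fold. These shares are to be read against 34.9% of all tested names higher and 20.5% lower.

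**Figure D4:**
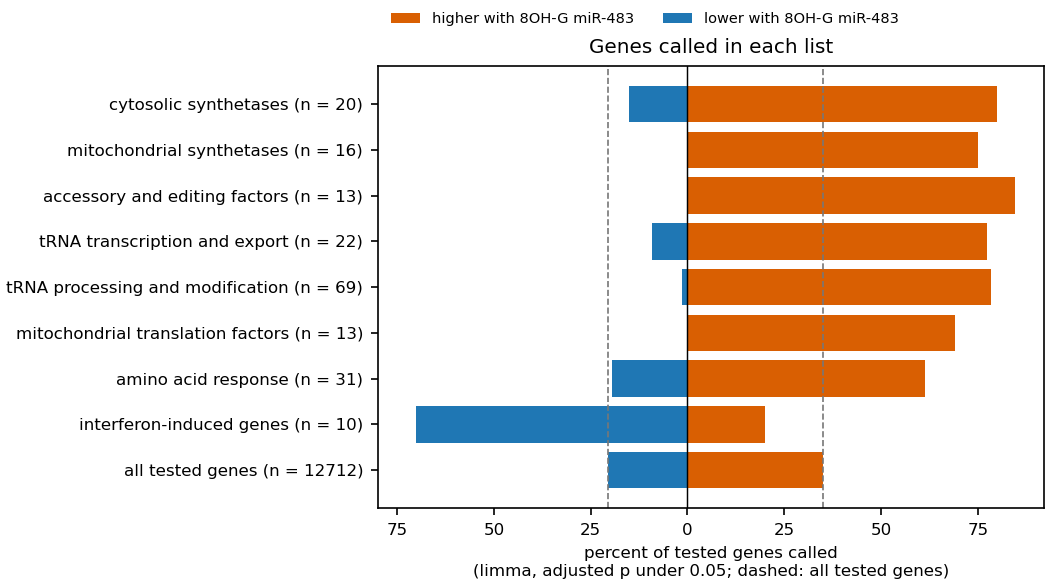
Percent of the tested genes of each list that were higher (right) or lower (left) with 8OH-G miR-483. Dashed lines mark all tested genes, at 34.9% and 20.5%. The tRNA-related lists lie between 69.2% and 84.6% higher, and among the lists drawn the interferon-induced list had more lower than higher genes, 7 against 2. MARS2, LCMT2 and PSMB9, counted in these lists, met the filter only through the group where each was higher.

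Of 31 tested genes of the amino acid response list, 19 rose and 6 fell (61.3% and 19.4%), beside 34.9% and 20.5% of all tested names, so the share that fell was near that of all names. Under either scaling 16 rose and 10 fell. Highest in fitted change stood SLC7A5, the carrier of large neutral amino acids (4.74-fold), STC2, a secreted glycoprotein (3.50-fold), and PSAT1, a serine synthesis enzyme (3.46-fold in mean FPKM). ATF4 itself was at 109, 98.7 and 89.4 FPKM with miR-483 and at 79.6, 89.6 and 76.8 FPKM with 8OH-G miR-483. Its groups met at 89.4 and 89.6 FPKM, and the fitted change was -0.27 (SE 0.094, limma adjusted p = 0.0376). ATF4 protein is known to be controlled largely at translation and was not measured. The others that fell were DDIT4, EIF2AK3, PYCR1, SESN2 and SLC38A2. ASNS, asparagine synthetase, a common readout of this response, rose from 3.77 ± 0.497 to 9.46 ± 2.14 FPKM.

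Beside the fall of WARS, 7 of 10 tested interferon-induced genes fell and 2 rose, where 20.5% and 34.9% of all tested names did. PSMB9, among the 7, met the filter only through the libraries with miR-483, where it was higher. Its fall therefore adds little to the count. GBP2, a guanylate-binding protein gene, fell from 19.6 ± 1.11 to 8.59 ± 1.72 FPKM, IRF9 from 7.57 ± 0.853 to 3.57 ± 0.807 FPKM and STAT2 from 27.0 ± 2.08 to 16.9 ± 0.747 FPKM. Whether the level of WARS follows these genes was not tested.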

How the data were processed

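RNA-seq values of 6 HUVEC libraries, 3 per group, were taken from the deposited tables, 1 per library, each of 20792 rows. The values are read as FPKM made by the authors, from their scale and sums, since the headers name no unit. Per the submitters' processing notes the tools were cutadapt, STAR, HTSeq and DESeq2 with the hg19 build. Order of use, strand setting and handling of multi-mapping reads: not given in the sources used here. Whole reads could not be recovered (865 low genes, of 200 depth ratios tried the best put 28.1% within 0.05 log2 of whole steps and the median one 25.5%), so the depth and counting error are unknown.

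Of the rows, 24 named as dates were dropped. For 744 names on several rows the highest value per library was kept, which left 18317 names. The 12712 names that reached 1 FPKM in 3 or more libraries were fitted as log2(FPKM + 1) with limma 3.58.1 (trend, robust) in R 4.3.3, with Benjamini-Hochberg adjustment over all of them and a threshold of 0.05. A fold change from this scale understates the change of low genes. The fit was tested on simulated data, in which 100 names were changed 1.5-fold and 100 were changed 2-fold. It recovered 65 and 86 of them, with 2 false calls. Far fewer names were changed there than the 7039 called in the data, so these rates need not hold here. Ratios of means are of FPKM itself. Alternatives were median-ratio scaling, quantile normalization, a pseudocount of 0.1, other filters, other treatment of repeated names, a replicate block and leaving out each library.

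The 38 members and all gene lists were chosen with earlier results of these data known. Values per library are given for passing members with the largest changes (up to 10 cytosolic and 6 mitochondrial), for both scaffold genes, for those that fell and for the pair that differed most. In other lists the 3 passing genes with the largest changes are named. ATF4, ASNS, MAF1, POLR3GL, TRPT1, LCMT2, PSMB9, SEPSECS, TRNAU1AP, PSTK, EEFSEC, the other genes that fell in the amino acid response list, further pairs, values per library of HARS2 and GARS, and the printed promoter sites were chosen after values were seen. Promoters are from RefSeq (GRCh38.p14), and their coordinates belong to that build only.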

Additional observations from a re-analysis of the deposited data

How the results depend on the processing

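The 30 higher and 3 lower calls ranged over 26 to 30 and 2 to 2 when 1 library was left out, cytosolic higher calls over 15 to 16, mitochondrial over 9 to 12, calls of at least 1.5-fold (16 in the full set) over 16 to 17, and calls over all names (7039) over 6101 to 6741. Calls of at least 1.5-fold were 12 under either scaling. The median cytosolic change, 0.42, became 0.326 under both median-ratio scaling and quantile normalization (0.403 to 0.457 with 1 library left out). The median mitochondrial change, 0.41, became 0.331 and 0.303 under these, 0.513 with a pseudocount of 0.1, 0.54 with the mean over repeated rows and 0.497 with repeated names left out (0.393 to 0.456 with 1 library left out). Changes near 0 turned sign: GARS to 0.0312 without 8OH-G miR-483 replicate 1 (range over libraries left out -0.0786 to 0.0312), VARS2 to -0.0562 (median-ratio) and -0.104 (quantile), RARS2 to -0.000438 (quantile), and PARS2 to -0.0261 (median-ratio), -0.0115 (quantile), -0.00429 without 8OH-G miR-483 replicate 1 and -0.0615 without miR-483 replicate 3 (range -0.0615 to 0.085). The cause was not tested. QARS was also lost with no filter (adjusted p from limma 0.052), and PROX1, a lymphatic marker, in 3 of the 6 sets with 1 library left out (0.0549 to 0.108).

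The labels do not say whether same-numbered replicates belong together, and the main fit did not pair them. The correlations of their deviations from the group means were 0.0171, 0.332 and 0.0118. For differently numbered replicates these correlations ran from -0.239 to 0.220, so they do not settle whether the replicates were paired. With the replicate number as a block, 7594 names were called, 31 synthetase or scaffold genes rose and 3 fell, 16 cytosolic and 13 mitochondrial genes rose, the added gene being HARS2 (adjusted p from limma 0.042), 16 changed at least 1.5-fold, and the medians were 0.419 and 0.408.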

Other observations

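Several of the genes start within 500 bases of a neighbour on the opposite strand, by the RefSeq starts. Among 9 such pairs with a row for both genes, both rose in 3 (FARS2 with LYRM4, SARS2 with MRPS12, AIMP2 with PMS2), 1 rose and the other did not pass in 5, and in 1 pair WARS fell and its neighbour did not pass. RARS2 did not pass, while ORC3, an origin recognition subunit whose start lies 148 bases away, rose from 3.36 ± 0.165 to 7.94 ± 1.01 FPKM (limma adjusted p = 3.83e-05). SARS2 rose by 0.21 on the log2 scale, while MRPS12, a mitochondrial ribosomal protein gene 181 bases away, rose by 0.68. KARS rose by 0.67, while TERF2IP, a telomere protein gene 108 bases away, was at 27.5 ± 0.778 and 29.9 ± 1.41 FPKM and did not pass. WARS fell, while WDR25, 158 bases away, did not pass (log2 change -0.09). The differences within these pairs were not tested, and the neighbours were chosen after values were seen.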
